A study of Mus musculus with 9 samples.

Results

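The core circadian clock genes were followed here in the kidneys of wild-type mice with and without acute kidney injury (AKI). They are Arntl (also written Bmal1), Clock, Npas2, Cry1, Cry2, Per1, Per2, Per3, Nr1d1 and Nr1d2, taken as a named list and described whether or not they moved. All 10 were found among the 56923 genes of the table, and all 10 were among the 17036 genes tested. RNA sequencing gave 9 libraries, 3 in each of 3 groups. The sham group had the operation without ischemia-reperfusion (IR) injury and is labelled as given phosphate-buffered saline (PBS). The AKI_PBS group had the injury and PBS. The AKI_PTPi_mEVs group had the injury and milk-derived extracellular vesicles (mEVs) loaded with PTP1B siRNA, PTP1B being the product of Ptpn1. None of the 9 libraries comes from mice given vesicles without that siRNA. All groups are labelled WT and kidney, and no label gives a strain, an age or a sex. The series asks what PTP1B does in the injured kidney.

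In mammals the clock is a loop of transcription factors that feeds back on itself about once a day. ARNTL pairs with CLOCK or its relative NPAS2 and switches on the Per and Cry genes at E-boxes, and PER and CRY proteins then hold that pair back. NR1D1 and NR1D2, also called REV-ERB alpha and beta, form a further loop by repressing Arntl and Npas2 at ROR elements, which ROR proteins activate. In mouse peripheral organs the transcripts of Arntl and Npas2 run nearly opposite in time to those of Nr1d1, Per3 and the output gene Dbp. In the kidney the clock is known for daily rhythms of salt and water transport. The labels give neither the clock time at which kidneys were taken nor the time after injury. For any member, an effect of either time and an effect of the group cannot be told apart.

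Known motifs of clock factors and of inputs to the Per genes were looked up in RefSeq promoters (build GRCm38.p6). Each promoter ran from 250 bases before to 50 after an annotated start. The table held 13 promoters for 9 members and none for Per2. Motifs were searched on both strands as the letters CACGTG (E-box), CACGTT (E-prime box), TAGGTCA (ROR element), TTANGTAA (D-box), TGACGTCA (CRE), and as the palindromic glucocorticoid response element. The stretches that hold a match are shown because the motifs found in them (E-box, E-prime box, ROR element and D-box) are ones clock factors are known to read. Capitals mark the match, which reads AACGTG where the E-prime box lies on the other strand.
Arntl, second annotated start, chr7:113207531-113207557, plus strand, ROR element: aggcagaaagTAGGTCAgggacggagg
Cry1, chr10:85185089-85185153, minus strand, E-prime box and E-box: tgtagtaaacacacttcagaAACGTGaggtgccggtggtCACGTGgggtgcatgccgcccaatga
Cry2, chr2:92434210-92434255, minus strand, E-prime box: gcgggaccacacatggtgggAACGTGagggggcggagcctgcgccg
Per1, first annotated start, chr11:69098763-69098808, plus strand, E-box: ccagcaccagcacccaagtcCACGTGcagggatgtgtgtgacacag
Per3, chr4:151044796-151044890, minus strand, a pair of D-boxes: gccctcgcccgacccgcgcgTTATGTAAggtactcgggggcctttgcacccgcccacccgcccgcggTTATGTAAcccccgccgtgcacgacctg
Nr1d1, chr11:98775380-98775425, minus strand, E-prime box: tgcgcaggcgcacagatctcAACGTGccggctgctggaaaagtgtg

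No listed letters were found in the windows of Clock, Npas2 and Nr1d2, nor at the first Arntl start and the second Per1 start. Over 32851 promoters of the same length, 7.15% held the E-box letters, 4.68% the E-prime box, 2.61% the ROR element, 2.32% the D-box and 1.79% the CRE. The glucocorticoid response element was found in 0.00913% of them. A match describes the letters in the window and does not show that a factor binds there.

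Libraries held 9467851 to 11389479 counts, and the members had 8 to 3425 counts in a library. Levels are in CPM, counts scaled to a common library size with factors from the trimmed mean of M-values (TMM). A gene was called where its adjusted p (Benjamini-Hochberg, all genes tested) from the quasi-likelihood test of edgeR was under 0.05. Values after ± are standard errors (SE) of a log2 fold change unless SD is written, and n = 3 libraries per group. Whether each library is 1 animal is not in the labels, so the tests speak for the spread among these libraries alone. The targeted gene, Ptpn1, ranged from 80.9 to 98.8 CPM over the sham libraries, from 123 to 170 over AKI_PBS and from 94.0 to 106 over AKI_PTPi_mEVs. It was called higher in AKI_PBS than in sham (0.71 ± 0.15) and lower in AKI_PTPi_mEVs than in AKI_PBS (-0.53 ± 0.15). Ptpn1 in AKI_PTPi_mEVs against sham did not pass (0.18 ± 0.15, edgeR adjusted p = 0.455). AKI_PBS replicate 3 stood apart from the rest of its group on the third principal component (-44.1 against 28.3 and 20.6), and it held the highest level in its group for 9 of the 10 members, against 39.9% of all genes tested. Each member's result is therefore also given without it where the call changes or the fold change moves by over 1.5 times on the log2 scale.

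Between AKI_PBS and sham, 9 of the 10 clock genes were called. Arntl, Clock, Npas2, Cry1, Cry2 and Per1 rose, Per2, Per3 and Nr1d2 fell, and Nr1d1 did not pass. Of all genes tested 55.7% were called, 27.8% as higher and 27.9% as lower. The groups did not overlap for 7 members and for 62.1% of all genes tested. The call came with a log2 fold change of at least 1 in size for 6 members and for 30.7% of all genes. The median size of the log2 fold change was 1.33 over the members and 0.65 over all genes tested. Between AKI_PTPi_mEVs and AKI_PBS, 8 members were called, 7 lower and Per3 higher, where 51.1% of all genes tested were called, 25.4% as higher and 25.8% as lower. There 7 members and 57.9% of all genes had groups that did not overlap, and 6 members and 26.8% of all genes were called with a log2 fold change of at least 1 in size. Between AKI_PTPi_mEVs and sham, 3 members were called, Arntl higher and Per1 and Per3 lower, where 13.2% of all genes tested were called, 7.43% as higher and 5.79% as lower. There 5 members and 39.2% of all genes had groups that did not overlap, and Arntl alone of the members, with 5.79% of all genes, was called with a log2 fold change of at least 1 in size. The AKI_PBS libraries enter the first and second comparisons alike, so opposite signs in them are not separate observations.

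**Figure D1:**
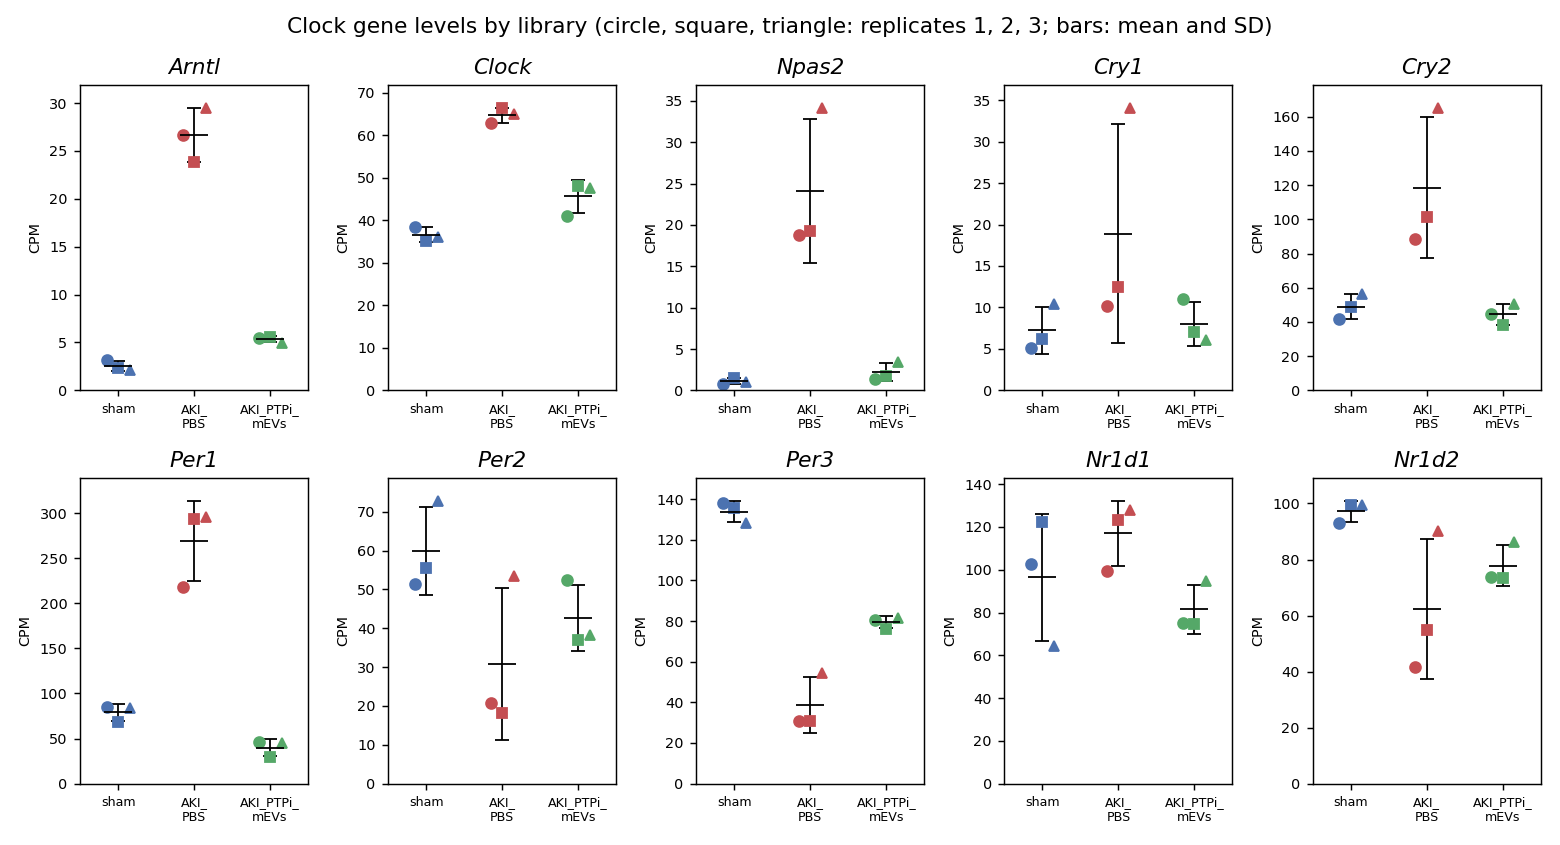
Level of each clock gene (y axis, CPM, each panel on its own scale from 0) in the 3 libraries of each group (x axis), with the group mean and SD as bars. Arntl and Npas2 were far above both other groups in every AKI_PBS library, Per3 was below them in every AKI_PBS library, and AKI_PBS replicate 3 (triangle) was the highest of its group in 9 of 10 panels.

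Arntl encodes the partner of CLOCK and NPAS2 in the activating complex. It was at 3.14, 2.33 and 2.13 CPM in the sham libraries, at 26.7, 23.8 and 29.5 CPM in AKI_PBS and at 5.51, 5.57 and 4.95 CPM in AKI_PTPi_mEVs. The 3 groups did not overlap, with sham lowest and AKI_PBS highest. Arntl was 10.5-fold higher in AKI_PBS than in sham (3.39 ± 0.21 as log2 fold change, edgeR adjusted p = 2.59e-07). It was 4.99-fold lower in AKI_PTPi_mEVs than in AKI_PBS (-2.32 ± 0.20, edgeR adjusted p = 2.83e-06). It was also 2.11-fold higher in AKI_PTPi_mEVs than in sham (1.07 ± 0.22, edgeR adjusted p = 0.00858), the only member called higher there.

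Npas2, which can stand in for CLOCK, was the member with the lowest level per length in sham and had the largest fold change of the 10. Its levels were 0.784, 1.49 and 1.02 CPM in sham, 18.8, 19.3 and 34.2 CPM in AKI_PBS and 1.38, 1.75 and 3.41 CPM in AKI_PTPi_mEVs. Every AKI_PBS library was above every other library, while sham and AKI_PTPi_mEVs overlapped. Over sham the rise in AKI_PBS was 21.7-fold (4.44 ± 0.39 as log2 fold change, edgeR adjusted p = 1.91e-06), on 8 to 16 counts per sham library. Npas2 was 11.1-fold lower in AKI_PTPi_mEVs than in AKI_PBS (-3.48 ± 0.36, edgeR adjusted p = 1.01e-05). AKI_PTPi_mEVs against sham did not pass (0.96, 95% interval 0.0012 to 1.92, edgeR adjusted p = 0.172).

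Clock itself moved much less. It was at 38.5, 35.2 and 36.0 CPM in sham, 62.8, 66.4 and 64.9 CPM in AKI_PBS and 41.0, 48.1 and 47.6 CPM in AKI_PTPi_mEVs. The groups did not overlap and followed the same order as for Arntl, with little spread within AKI_PBS. Clock rose 1.77-fold in AKI_PBS (log2 fold change 0.82 ± 0.12, edgeR adjusted p = 0.000123). The level was 1.42-fold lower in AKI_PTPi_mEVs than in AKI_PBS (-0.51 ± 0.12, edgeR adjusted p = 0.00439). The difference between AKI_PTPi_mEVs and sham did not pass (0.32, 95% interval 0.048 to 0.59, edgeR adjusted p = 0.11). As a share of the counts of Clock and Npas2 together, Npas2 held 2.93 ± 1.05% (SD) in sham, 26.7 ± 6.77% (SD) in AKI_PBS and 4.48 ± 1.91% (SD) in AKI_PTPi_mEVs. Its lowest share in AKI_PBS, 22.5%, was above its highest in AKI_PTPi_mEVs, 6.68%.

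**Figure D2:**
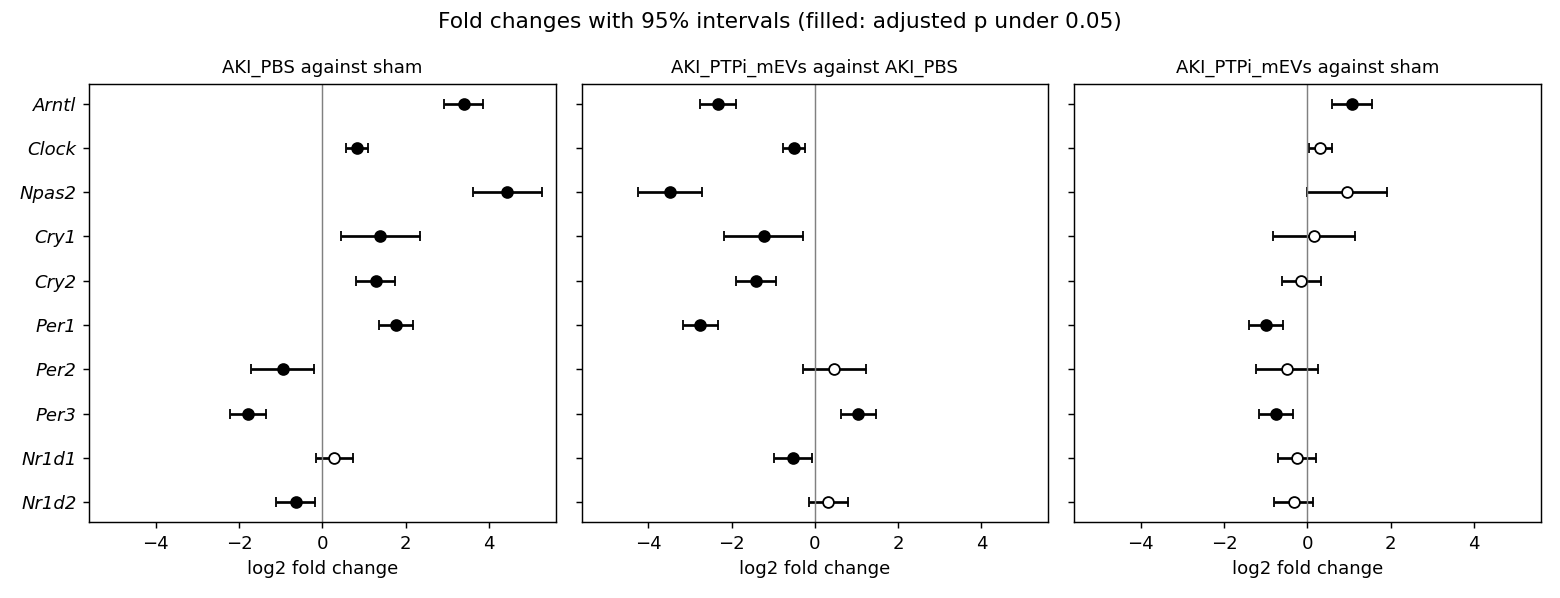
Log2 fold change of each clock gene (x axis) in the 3 comparisons, with 95% intervals, not adjusted for the number of genes, as bars and filled points for an adjusted p under 0.05. In AKI_PBS against sham the points run from Npas2 at 4.44 to Per3 at -1.79, and in AKI_PTPi_mEVs against sham only Arntl, Per1 and Per3 are filled.

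The Per genes, whose proteins form the repressing complex, did not move together. Per1, the one best known for a fast response to stress hormones and cyclic AMP, was at 85.3, 68.4 and 83.4 CPM in sham, 218, 294 and 296 CPM in AKI_PBS and 45.7, 29.3 and 45.2 CPM in AKI_PTPi_mEVs. The groups did not overlap, and here AKI_PTPi_mEVs was the lowest. Per1 rose 3.41-fold in AKI_PBS (log2 fold change 1.77 ± 0.19, edgeR adjusted p = 8.29e-06). The level was 6.72-fold lower in AKI_PTPi_mEVs than in AKI_PBS (-2.75 ± 0.20, edgeR adjusted p = 1.01e-06). It was also 1.97-fold lower in AKI_PTPi_mEVs than in sham (-0.98 ± 0.19, edgeR adjusted p = 0.00582).

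Per3 went the other way. It was at 138, 136 and 128 CPM in sham, 30.6, 30.7 and 54.6 CPM in AKI_PBS and 80.7, 76.2 and 81.7 CPM in AKI_PTPi_mEVs. The groups did not overlap, and AKI_PTPi_mEVs lay between the others. Per3 fell 3.47-fold in AKI_PBS (log2 fold change -1.79 ± 0.20, edgeR adjusted p = 1.08e-05). The level was 2.06-fold higher in AKI_PTPi_mEVs than in AKI_PBS (1.04 ± 0.20, edgeR adjusted p = 0.000775). It was 1.68-fold lower in AKI_PTPi_mEVs than in sham (-0.75 ± 0.19, edgeR adjusted p = 0.0222). This last call was lost without sham replicate 1 (-0.73) or 2 (-0.74), and without AKI_PTPi_mEVs replicate 1 (-0.76), 2 (-0.73) or 3 (-0.76), at little change in size.

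Per2 was at 51.3, 55.6 and 72.8 CPM in sham, 20.8, 18.3 and 53.5 CPM in AKI_PBS and 52.5, 37.1 and 38.3 CPM in AKI_PTPi_mEVs. Only AKI_PBS replicate 3 overlapped the sham range, and the other AKI_PBS libraries were the lowest of all. Per2 fell 1.94-fold in AKI_PBS (log2 fold change -0.96 ± 0.34, edgeR adjusted p = 0.0329), and by 1.62 on the log2 scale without AKI_PBS replicate 3. The call was lost without sham replicate 2 (-1.02) or 3 (-0.80), without AKI_PBS replicate 1 (-0.75) or 2 (-0.69), and with only the groups compared in the fit (-0.95). AKI_PTPi_mEVs against AKI_PBS did not pass (0.47 ± 0.34, edgeR adjusted p = 0.274), but did without AKI_PBS replicate 3 (1.13, edgeR adjusted p = 0.000639). AKI_PTPi_mEVs against sham did not pass either (-0.49, 95% interval -1.24 to 0.26, edgeR adjusted p = 0.379). Of the counts of the 3 Per genes, Per1 held 28.9 ± 2.37% (SD) in sham, 80.0 ± 6.28% (SD) in AKI_PBS and 24.5 ± 3.55% (SD) in AKI_PTPi_mEVs, and Per3 49.2 ± 3.72%, 11.3 ± 2.28% and 49.3 ± 4.17% (SD).

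**Figure D3:**
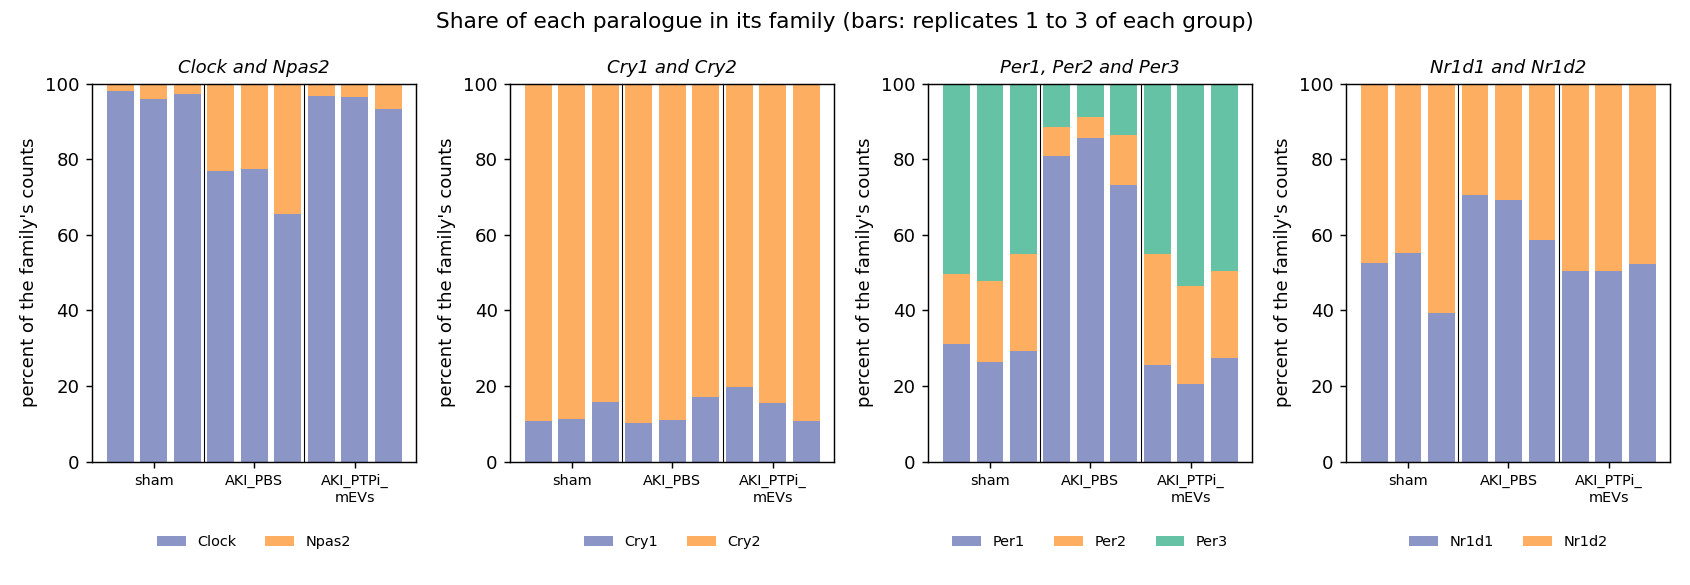
Share of each paralogue in the summed counts of its family (y axis, percent) in every library, with 3 bars per group in the order of the replicates. Per1 takes 73.3% to 85.7% of the Per counts in AKI_PBS and 20.5% to 31.0% in the other groups, while the share of Cry1 lies between 10.4% and 19.9% in all 9 libraries.

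The cryptochromes, the strongest repressors of the activating pair, both rose in AKI_PBS, and they differed in how firmly. Cry2 was at 41.7, 48.8 and 56.2 CPM in sham, 88.3, 101 and 165 CPM in AKI_PBS and 44.4, 38.1 and 50.6 CPM in AKI_PTPi_mEVs. All AKI_PBS libraries were above all others, and sham and AKI_PTPi_mEVs overlapped. Cry2 rose 2.42-fold in AKI_PBS (log2 fold change 1.27 ± 0.22, edgeR adjusted p = 0.000315). The level was 2.67-fold lower in AKI_PTPi_mEVs than in AKI_PBS (-1.42 ± 0.22, edgeR adjusted p = 0.0002). AKI_PTPi_mEVs against sham did not pass (-0.14, 95% interval -0.61 to 0.33, edgeR adjusted p = 0.721).

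Cry1 was at 5.10, 6.14 and 10.5 CPM in sham, 10.2, 12.4 and 34.1 CPM in AKI_PBS and 11.0, 6.99 and 6.05 CPM in AKI_PTPi_mEVs. The ranges of all 3 groups overlapped, and AKI_PBS replicate 3 was far above every other library. The test called Cry1 higher in AKI_PBS than in sham (1.39 ± 0.44 as log2 fold change, edgeR adjusted p = 0.0176) and lower in AKI_PTPi_mEVs than in AKI_PBS (-1.23 ± 0.44, edgeR adjusted p = 0.0325). Without AKI_PBS replicate 3 these values were 0.65 and -0.48, and neither passed (edgeR adjusted p = 0.104 and 0.225). The first call was also lost without sham replicate 1 (1.18) or 2 (1.27). The second was also lost without AKI_PTPi_mEVs replicate 2 (-1.11) or 3 (-1.05) and with limma voom (-1.04). AKI_PTPi_mEVs against sham did not pass (0.16, 95% interval -0.82 to 1.14, edgeR adjusted p = 0.859).

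Nr1d1, a main repressor of Arntl, was the member that did not pass between AKI_PBS and sham. It was at 103, 122 and 64.1 CPM in sham, 99.6, 123 and 128 CPM in AKI_PBS and 75.1, 74.8 and 94.5 CPM in AKI_PTPi_mEVs. Sham spanned nearly the whole range of the other groups, and its replicate 3 was the lowest of all libraries. AKI_PBS against sham did not pass (log2 fold change 0.28, 95% interval -0.17 to 0.72, edgeR adjusted p = 0.266), an interval that holds neither a fall nor a rise of 2-fold. Nr1d1 was lower in AKI_PTPi_mEVs than in AKI_PBS with no overlap (-0.52 ± 0.21, edgeR adjusted p = 0.0495). That call lay at the threshold and was lost without sham replicate 1 (-0.51), AKI_PBS replicate 2 (-0.48) or 3 (-0.45) and AKI_PTPi_mEVs replicate 1 (-0.45) or 2 (-0.45), and with limma voom (-0.52). AKI_PTPi_mEVs against sham did not pass (-0.24, 95% interval -0.69 to 0.20, edgeR adjusted p = 0.477).

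In the GENCODE M21 annotation 8.55% of the exon bases of Nr1d1 overlap Thra, the thyroid hormone receptor alpha gene on the opposite strand, and the strand setting of the counting is not given in the sources used here. Thra ranged from 37.9 to 48.5 CPM over the sham libraries, from 35.6 to 48.4 over AKI_PBS and from 31.0 to 34.6 over AKI_PTPi_mEVs, and it was called lower in AKI_PTPi_mEVs than in AKI_PBS as Nr1d1 was (-0.40 ± 0.15, edgeR adjusted p = 0.0447). Its part in the counts of Nr1d1 was not tested. Of the exon bases of Cry2, 4.67% overlap the antisense gene D930015M05Rik, which held 0.437 to 2.74 CPM in the 9 libraries. Of those of Arntl, 0.439% overlap Gm45355, which had 1 count in all.

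Nr1d2 was at 93.0, 99.4 and 99.4 CPM in sham, 41.8, 54.8 and 90.0 CPM in AKI_PBS and 73.7, 73.4 and 86.2 CPM in AKI_PTPi_mEVs. Every sham library was above every library of both other groups. Nr1d2 fell 1.56-fold in AKI_PBS (log2 fold change -0.65 ± 0.22, edgeR adjusted p = 0.0232), and by 1.01 on the log2 scale without AKI_PBS replicate 3. The call was lost without sham replicate 2 (-0.64) or 3 (-0.64) and without AKI_PBS replicate 1 (-0.43) or 2 (-0.56). AKI_PTPi_mEVs against AKI_PBS did not pass (0.32 ± 0.22, edgeR adjusted p = 0.234), but did without AKI_PBS replicate 3 (0.69, edgeR adjusted p = 0.00205). AKI_PTPi_mEVs against sham did not pass (-0.32, 95% interval -0.79 to 0.15, edgeR adjusted p = 0.358), but did with only the groups compared in the fit (-0.35, edgeR adjusted p = 0.0458).

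**Figure D4:**
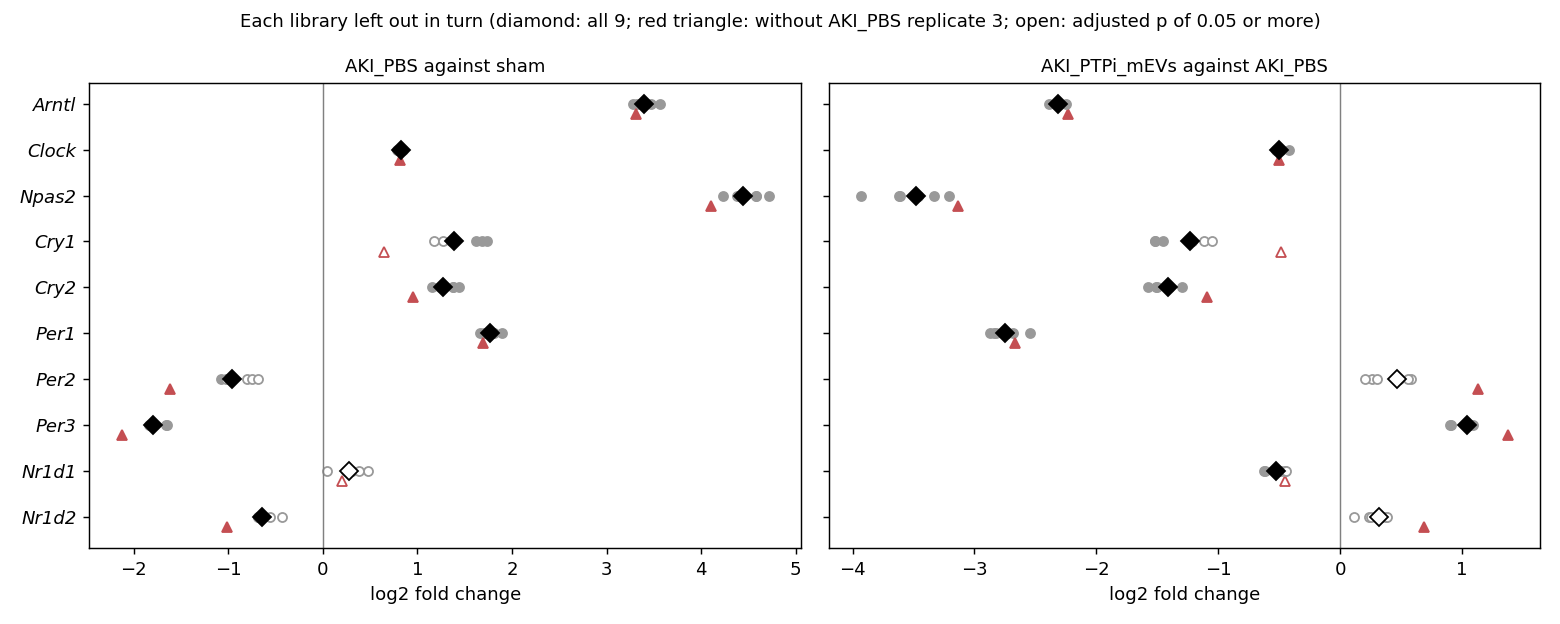
Log2 fold change of each clock gene (x axis) with all 9 libraries (diamond) and with each library left out in turn (grey circles, and a red triangle for AKI_PBS replicate 3), open where the adjusted p is 0.05 or more. Arntl, Clock, Npas2, Cry2, Per1 and Per3 stay filled in both comparisons, while Cry1, Per2, Nr1d1 and Nr1d2 have open points in both.

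Levels of different members were compared per kilobase of annotated exons. In sham the order ran from Nr1d1 (31.3 ± 9.64 CPM per kilobase, SD) over Nr1d2 (18.0 ± 0.683), Per1 (14.03 ± 1.65), Per3 (13.9 ± 0.548), Per2 (10.2 ± 1.94), Cry2 (7.74 ± 1.14), Clock (2.66 ± 0.127) and Cry1 (2.17 ± 0.852) to Arntl (0.336 ± 0.0707) and Npas2 (0.229 ± 0.0749). The neighbours Per1 and Per3, Per2 and Cry2, Clock and Cry1, and Arntl and Npas2 had overlapping ranges. In AKI_PBS Per1 had the highest mean, 47.8 ± 7.88 CPM per kilobase (SD), with a range that overlapped that of Nr1d1 (38.0 ± 4.95), and Arntl and Npas2 reached 3.55 ± 0.377 and 5.03 ± 1.82 CPM per kilobase (SD), beside 4.71 ± 0.133 for Clock. In AKI_PTPi_mEVs Nr1d1 led again with 26.5 ± 3.68 CPM per kilobase (SD), and Arntl and Npas2 were at the bottom with 0.710 ± 0.0455 and 0.454 ± 0.226. The ranges of Arntl and Npas2 overlapped there too.

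The balance between opposite arms of the loop was read inside each library as a ratio of counts. Arntl to Per3 was 0.0227, 0.0172 and 0.0167 in sham, 0.873, 0.777 and 0.540 in AKI_PBS and 0.0683, 0.0731 and 0.0606 in AKI_PTPi_mEVs. Arntl to Nr1d1 was 0.0305, 0.0190 and 0.0333 in sham, 0.268, 0.193 and 0.231 in AKI_PBS and 0.0733, 0.0745 and 0.0523 in AKI_PTPi_mEVs. For both ratios the 3 groups were apart in the same order, sham, AKI_PTPi_mEVs and AKI_PBS. Arntl alone set the groups apart in that order, so the order of the ratios is not a separate observation. Nr1d1 did not pass between AKI_PBS and sham, and the ratio to it mostly restates Arntl. Other ratios that were computed are not reported here. A ratio within a library does not depend on how libraries were scaled, and it is given as a description with no test.

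Output genes of the clock lay beside these values. In a list of 10 output and stabilising loop factors, 5 fell, 3 rose and 2 did not pass in AKI_PBS against sham, where 55.7% of all genes tested were called. The median log2 fold change was -1.04 against 0.03 over all genes tested. Dbp, Hlf and Tef, D-box activators driven by the ARNTL complex, fell, with log2 fold changes of -2.95 ± 0.22, -3.02 ± 0.16 and -2.17 ± 0.24. Ciart, a repressor of the ARNTL complex, fell as well (-1.94 ± 0.26). Dbp was at 28.5, 33.8 and 34.1 CPM in sham, 2.94, 4.12 and 5.39 CPM in AKI_PBS and 25.3, 20.5 and 25.8 CPM in AKI_PTPi_mEVs, with no overlap between groups. Nfil3, a repressor at D-boxes, rose by 2.44 ± 0.42, and Rora, an activator at ROR elements, rose by 1.45 ± 0.24.

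In AKI_PTPi_mEVs against AKI_PBS the same list had 4 higher and 3 lower, where 51.1% of all genes were called, with Hlf at 2.88 ± 0.16, Dbp at 2.52 ± 0.22, Tef at 1.49 ± 0.23 and Rora at -1.69 ± 0.24. Against sham Ciart alone passed, at -1.06 ± 0.25 (edgeR adjusted p = 0.0154). That is 10% of the list, near the 13.2% of all genes called there. Dbp, Tef and Hlf were at -0.43 ± 0.19, -0.69 ± 0.23 and -0.13 ± 0.15 there and did not pass. Without AKI_PBS replicate 3 Tef passed at nearly the same size (-0.68, edgeR adjusted p = 0.0106), and 2 of the list were lower in place of 1. In AKI_PTPi_mEVs against AKI_PBS the list then had 5 higher and 2 lower.

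**Figure D5:**
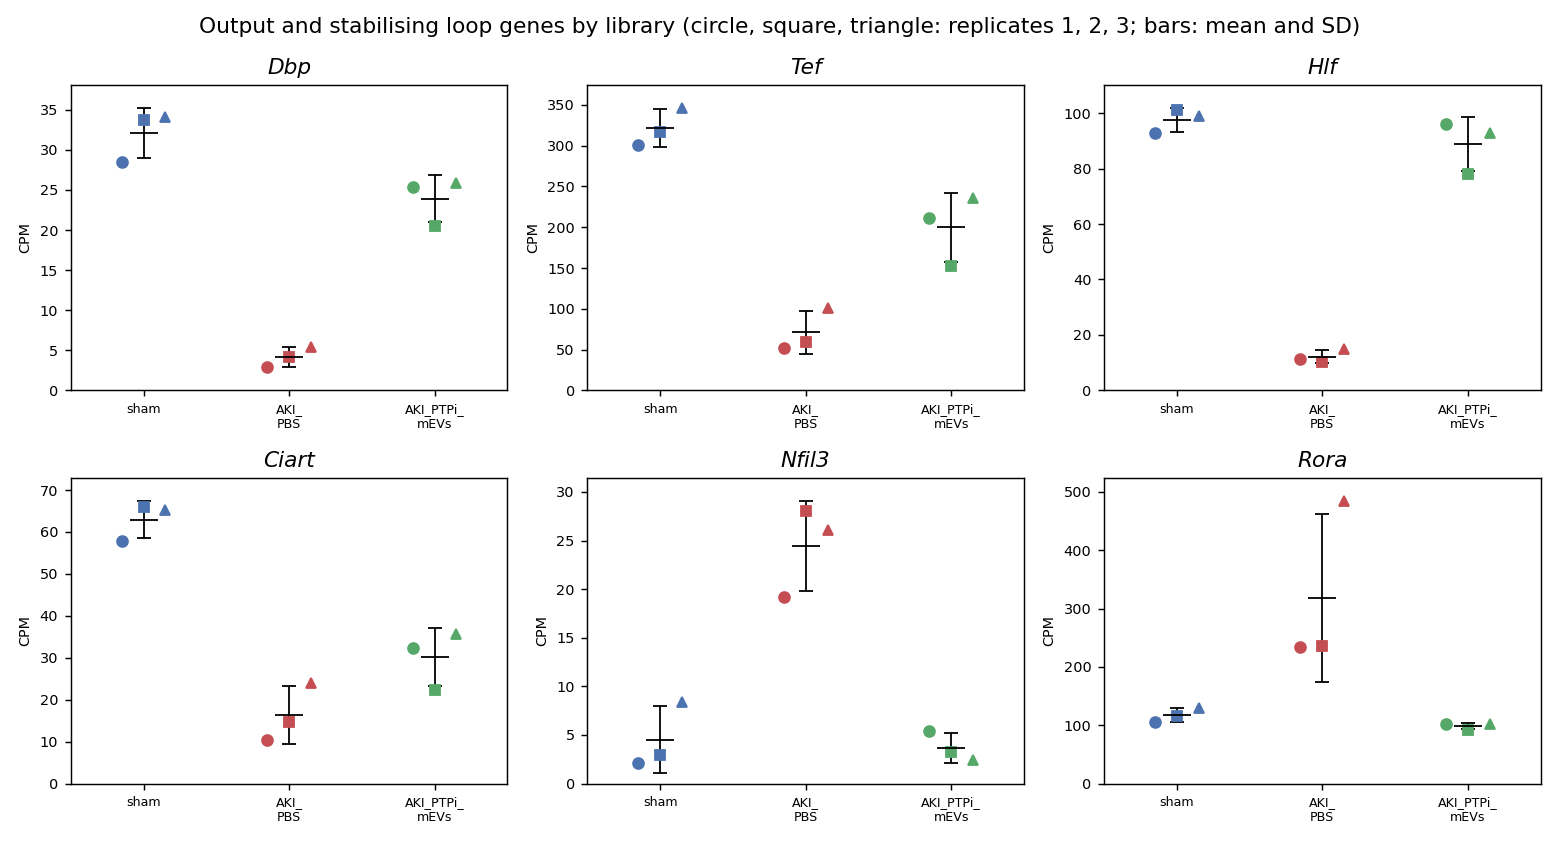
Level of 6 output or stabilising loop genes (y axis, CPM, each panel on its own scale from 0) in the 3 libraries of each group (x axis), with the group mean and SD as bars. Dbp, Tef and Hlf are lower in every AKI_PBS library than in any other, Ciart in AKI_PBS replicate 3 (24.0 CPM) is above AKI_PTPi_mEVs replicate 2 (22.4 CPM), and Nfil3 and Rora are highest in the AKI_PBS libraries.

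Kinases and ubiquitin ligases that set the life of clock proteins moved in both directions. Of 13 listed, 5 rose and 3 fell in AKI_PBS against sham, which at 61.5% is near the 55.7% of all genes called. Csnk1e and Csnk1d, the casein kinases that mark PER proteins, rose by 2.04 ± 0.17 and 1.24 ± 0.15, while Usp2, a deubiquitinase, and Btrc, a ligase subunit for PER, were at -1.56 ± 0.18 and -1.10 ± 0.18. In AKI_PTPi_mEVs against AKI_PBS 2 were higher and 5 lower, 53.8% of the list beside 51.1% of all genes, with Csnk1e at -2.03 ± 0.18 and Btrc at 1.11 ± 0.18. Against sham Csnk1d (0.54 ± 0.15) and Usp2 (-0.63 ± 0.17) passed, where 13.2% of all genes did. Without AKI_PBS replicate 3, 3 of the list were lower there in place of 1. Of 15 partners and cofactors, 6 rose and 2 fell in AKI_PBS, 3 were higher and 5 lower in AKI_PTPi_mEVs against AKI_PBS, and 3 were higher against sham. The first and second are each 53.3% of the list, near the 55.7% and 51.1% of all genes called, and 13.2% of all genes were called against sham. Without AKI_PBS replicate 3 the partners and cofactors had 5 higher and 2 lower in the first comparison, 4 and 3 in the second, and 4 and 0 against sham. Sfpq, an RNA-binding partner of PER complexes, was at 1.45 ± 0.19 and -0.96 ± 0.19 in the first and second comparisons. Nampt, which makes an NAD precursor, was at -0.65 ± 0.13 and 0.80 ± 0.13. Timeless, a replication fork gene related in name to the fly clock, was higher in AKI_PTPi_mEVs than in AKI_PBS (1.70 ± 0.25) and than in sham (1.26 ± 0.25).

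In a list of 10 genes of the inputs to the Per genes, which holds regulators and also targets that report on them, 6 rose and 2 fell in AKI_PBS against sham, 1 was higher and 5 lower in AKI_PTPi_mEVs against AKI_PBS, and 0 passed against sham by edgeR, limma voom or DESeq2. There 0 of the 10 had an unadjusted p under 0.05 by any of these tools. Of all genes 55.7%, 51.1% and 13.2% were called in these comparisons. Without AKI_PBS replicate 3, 6 of the list were lower in place of 5 in AKI_PTPi_mEVs against AKI_PBS. Nr3c1, the glucocorticoid receptor, was lower in AKI_PBS than in sham (-0.70 ± 0.14) and higher in AKI_PTPi_mEVs than in AKI_PBS (0.49 ± 0.14). Fkbp5 and Zbtb16, glucocorticoid-induced genes, were at 2.10 ± 0.20 and 4.24 ± 0.37 in the first and at -2.04 ± 0.20 and -4.79 ± 0.39 in the second comparison. Tsc22d3, another glucocorticoid-induced gene, did not pass in either (0.17 ± 0.28 and -0.57 ± 0.28). Crtc2, a coactivator of CREB, was at 1.27 ± 0.16 and -1.51 ± 0.17, and Sik1, a kinase that restrains it, at 1.46 ± 0.20 and -1.55 ± 0.20. Its relatives differed. Crtc3 was called in both (1.02 and -1.11), while Crtc1 was lower in the first (-0.48) and did not pass in the second (0.23). Creb1, which encodes CREB, passed in neither (0.13 and 0.12). Of 8 kidney genes known to be under clock control 7 were tested, with 3 higher and 2 lower in AKI_PBS, 1 higher and 4 lower in AKI_PTPi_mEVs against AKI_PBS, and 1 each way against sham. These are 71.4%, 71.4% and 28.6% of those tested, beside 55.7%, 51.1% and 13.2% of all genes. Without AKI_PBS replicate 3 the counts were 2 and 2, 2 and 4, and 1 and 2. Edn1, endothelin, rose by 3.49 ± 0.33 in AKI_PBS and was still 1.60 ± 0.34 above sham in AKI_PTPi_mEVs. Sgk1, a kinase of sodium transport, was at 1.496 ± 0.33 and -1.59 ± 0.33 in the first and second comparisons, and Slc9a3, the sodium-proton exchanger of the proximal tubule, was at -0.69 ± 0.18 in the second. AKI_PBS replicate 3 held 863 CPM of Sgk1 against 337 and 359 CPM in the rest of its group. Without that library Sgk1 was at 0.92 and -1.01 and Slc9a3 at -0.41, and all 3 still passed. Slc9a3 did not pass in the first comparison (-0.0070, and -0.29 without that library). It was also lower in AKI_PTPi_mEVs than in sham (-0.70 ± 0.18).

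Marker lists of 10 cell types were read beside these groups, and they did not move alike. Of all genes tested, 27.8% were called higher and 27.9% lower in AKI_PBS against sham. The shares were 25.4% and 25.8% in AKI_PTPi_mEVs against AKI_PBS, and 7.43% and 5.79% in AKI_PTPi_mEVs against sham. The lists are short, and their counts are given beside these shares as a description with no test. Neutrophil markers summed to 0.813 to 1.76 CPM in sham, 12.4 to 27.6 CPM in AKI_PBS and 1.01 to 1.42 CPM in AKI_PTPi_mEVs. The 6 tested of 8 were called higher in AKI_PBS than in sham and lower in AKI_PTPi_mEVs than in AKI_PBS. With so few counts for all 8 together in sham and AKI_PTPi_mEVs, the low-count filter kept most of the 6 for their AKI_PBS counts. Their directions were therefore close to fixed by the filter and add little to the sums. S100a8, Retnlg and Mmp8 were at 0 in sham, and Ngp and Camp in AKI_PTPi_mEVs. Proximal tubule markers summed to 6517 to 8653 CPM, 2348 to 3905 CPM and 5061 to 7670 CPM in the same order, with 4 of 5 lower in AKI_PBS than in sham and 4 of 5 higher in AKI_PTPi_mEVs than in AKI_PBS. Of 3 loop of Henle markers 3 were lower in AKI_PBS and 2 higher in AKI_PTPi_mEVs against AKI_PBS. Of 3 collecting duct markers 2 were lower in AKI_PBS, and 2 were higher and 1 lower in AKI_PTPi_mEVs against AKI_PBS.

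Podocyte markers went the other way, with 2 of 3 higher in AKI_PBS and 2 of 3 lower in AKI_PTPi_mEVs against AKI_PBS, and endothelium had 1 of 3 higher and 2 of 3 lower. Distal convoluted tubule markers had 1 of 3 higher and 1 lower in AKI_PBS, and 1 lower in AKI_PTPi_mEVs against AKI_PBS. Red blood cell markers summed to 91.6 to 123 CPM in sham, 113 to 256 CPM in AKI_PBS and 20.6 to 48.1 CPM in AKI_PTPi_mEVs. Sham and AKI_PBS overlapped there with 1 of 5 called higher, while 5 of 5 were lower in AKI_PTPi_mEVs than in AKI_PBS. Macrophage markers summed to 90.3 to 119 CPM, 60.8 to 104 CPM and 65.3 to 78.2 CPM. Of these 5, 1 was higher and 2 lower in AKI_PBS, and 2 were higher and 0 lower in AKI_PTPi_mEVs against AKI_PBS. Of 5 T and B cell markers 1 was tested, lower in AKI_PBS and higher in AKI_PTPi_mEVs against AKI_PBS. In AKI_PTPi_mEVs against sham 4 of 5 red blood cell markers were lower, as were 1 of 3 loop of Henle and 1 of 3 distal convoluted tubule markers. Macrophage had 1 higher and 1 lower there, and the other lists had 0 called. The part of these cells in the clock gene differences was not tested, and fewer cells of a type cannot be told apart from less RNA per cell in whole kidney.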

How the data were processed

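Kidney RNA was sequenced in 9 libraries made with a Tn5-based kit, per the labels' protocols. The deposited values are whole-number counts per gene, made with STAR and HTSeq (versions not given in the sources used here), per the submitters' processing notes. These name the human build GRCh38.p14 although all 56923 identifiers are mouse Ensembl identifiers. Columns were matched by name and 0 were left unmapped. Symbols came from a reference table of gene names matched on the Ensembl identifier without its version (52073 matched, 4850 did not). Exon lengths and overlaps came from GENCODE M21 and promoters from RefSeq, both on GRCm38, which need not be the build of the counts. Tests ran in R 4.3.3 on 17036 genes that passed filterByExpr of edgeR 4.0.16, after TMM scaling. A single robust glmQLFit over the 9 libraries had 1 mean for each group and 6 residual degrees of freedom. The SE is the size of the log2 fold change divided by the square root of F. The fit was also run on simulated counts with far fewer changed genes than were called here, so that run does not speak for data like these. Within groups no libraries were duplicates.

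The members, lists and motifs were chosen with earlier results of these data known. Named were all members, Ptpn1, genes overlapping a member, up to 4 called genes per list and comparison by adjusted p (2 where none was called), and the 3 genes most like each member. Nfil3, and Rora and Slc9a3 in AKI_PBS against sham, were named after their values were seen, as were Tef, Hlf and Dbp against sham and Nr3c1 and Tsc22d3. The same holds for Crtc1, Crtc3 and Creb1 in the first and second comparisons. The refit of the listed genes without AKI_PBS replicate 3 was also chosen after seeing the data. Some genes that this rule or the lists hold are not reported here. The alternatives changed the scaling (relative log expression size factors, library totals), the tool (DESeq2 1.42.0, limma 3.58.1 voom), the low-count filter (none, or 1 CPM in 6 libraries), the libraries fitted (the compared groups alone, or without each library in turn), the design (replicate number as a block) and the threshold (adding a minimum log2 fold change of 1). Python 3.11.15 with matplotlib 3.10.9 drew the figures.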

Additional observations from a re-analysis of the deposited data

How the results depend on the processing

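Of 510 recomputed fold changes (30 member comparisons, 17 settings), 477 kept their direction and side of the threshold, 28 lost the call, 3 gained it and 2 reversed. The reversed ones are Cry1 in AKI_PTPi_mEVs against sham, -0.04 without sham replicate 1 and -0.14 without AKI_PTPi_mEVs replicate 1, in a leave-one-out range of -0.14 to 0.52; the cause was not tested. With each library left out, 6 to 9 members were called in AKI_PBS against sham, 6 to 8 in AKI_PTPi_mEVs against AKI_PBS and 2 to 3 in AKI_PTPi_mEVs against sham. Over all genes these ranges were 8028 to 9650, 7337 to 8743 and 878 to 3395. The last count, 2252 with all libraries, was 1184, 938, 3395, 1487 and 878 without sham replicate 1, sham replicate 2, AKI_PBS replicate 3, AKI_PTPi_mEVs replicate 1 and AKI_PTPi_mEVs replicate 2. With a log2 fold change of at least 1, fewer genes can pass by construction: 5227, 4570 and 987 genes in the 3 comparisons, and 1 member, Arntl, in AKI_PTPi_mEVs against sham. Library totals moved the median log2 fold change of all genes by -0.11 in AKI_PTPi_mEVs against AKI_PBS and turned 4320 higher and 4391 lower into 3757 and 5048, while the members' calls were the same 8 in number.

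Same-numbered libraries of different groups did not deviate together (correlation of deviations -0.19 to 0.11), so the numbers were not taken to pair them. With a replicate block 9, 7 and 3 members were called, against 9, 8 and 3, and Nr1d1 in AKI_PTPi_mEVs against AKI_PBS was lost (-0.51). Npas2 had 8 to 16 counts and Arntl 21 to 32 in the sham libraries. After seeing the data the listed genes were refitted without AKI_PBS replicate 3, which reversed Tsc22d3 in AKI_PBS against sham (0.17 to -0.27, neither called); the cause was not tested.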

Other observations

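For each member the genes with the most similar pattern were sought among 11322 genes, as the smallest root-mean-square difference over the 9 libraries of log2 CPM taken relative to the sham mean. This is a description with no test. Nearest to Arntl were Rell1 (0.21), Cldn4, a claudin (0.24), and Dio3os (0.25). Nearest to Npas2, at a greater distance, were Plin2, a lipid droplet coat gene (0.59), Sphk1 (0.59) and Hpcal4 (0.63). Npas2 had 8 to 16 counts in a sham library, and the part of such low counts in its distance was not tested. Nearest to Clock were Nudt21 (0.074), Smarcc1 (0.086) and Smad5 (0.089). Nearest to Cry2 were Zmiz1 (0.12), Rora (0.15) and Crtc2 (0.15), and nearest to Cry1 were Peli1 (0.30), Cyth2 (0.30) and Dnajb5 (0.33). Nearest to Per1 were Mfsd2b (0.26), Slc39a14, a zinc and iron transporter (0.29), and Mir22hg (0.34). Nearest to Per3 were Bphl (0.17), Pik3c2g (0.17) and Haao (0.18), and to Per2 Trib2 (0.20), Cyp2d9 (0.20) and Slc27a2 (0.22). Nearest to Nr1d1 were Nuak1 (0.16), Gabpb2 (0.19) and Snx33 (0.19), and to Nr1d2 Aqp6 (0.14), Bckdha (0.16) and Igfbp4 (0.16). Among the members themselves, Per2 and Nr1d2 were the closest pair (0.37), followed by Cry1 and Cry2 (0.40), while Arntl and Npas2 were 0.72 apart.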
